A study of Medicago sativa with 9 samples.

Results

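The aminoacyl-tRNA synthetases of alfalfa (Medicago sativa) leaves were followed here through selenite treatment. A gene was taken as a member when its deposited description named a tRNA ligase or tRNA synthetase of an amino acid and its FPKM (sequenced fragments scaled by transcript length and library size) reached 1 in at least 3 of the 9 libraries. The description was matched by 430 of 164632 genes, and 193 of these passed the filter, for 20 amino acids and 20 enzyme classification numbers. The other 237 matching genes held 2.16% of the counts of all matches, and 125 of them had no count in any library. Of the 193 members 97 reached the threshold in every library and 16 in exactly 3, while 12 matching genes reached it in exactly 2. A gene that passed only through the libraries where it was high had to differ between times, so counts over the members describe these genes and no more.

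The leaves had been given selenite (Se(IV), an oxidised and water-soluble selenium) at 100 mg per kg and were taken after 0, 12 and 48 h, with 3 libraries at each time. All groups share the treatment and differ in its duration. Untreated leaves of the later times were not analysed here, and so the effect of selenite and that of the sampling time cannot be told apart. Whether the libraries of each time stem from different plants is not said in the labels, and p-values therefore reflect only how far these libraries scatter, in part perhaps for technical reasons.

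Aminoacyl-tRNA synthetases join each amino acid to its own transfer RNA, the step that sets which amino acid a codon is read as. Plant cells make protein in the cytosol, the plastid and the mitochondrion, and nuclear genes supply the synthetases of all these compartments. In Arabidopsis many organellar synthetases are imported into both plastid and mitochondrion. The cysteine and methionine enzymes have a particular place under selenium, because selenocysteine and selenomethionine resemble their sulfur substrates closely enough to be charged to the same tRNAs.

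Libraries held between 39936347 and 56137145 counts, and the members made up between 0.0894 and 0.149% of the summed FPKM of a library. The 101 genes of Rubisco small subunits and chlorophyll-binding proteins summed to between 92847 and 169838 FPKM per library, the 43 leghemoglobin genes of nodules were at 0 in all 9, and the 35 Casparian strip genes of root endodermis summed to at most 1.95 FPKM. Alfalfa carries 4 copies of each of 8 chromosomes, written here as 3.1 to 3.4 for chromosome 3, and reads can be assigned to the wrong one of several near-identical copies, which makes single-copy values uncertain. The 12 h libraries shared the reads of a locus among its copies in much the same way: over 40 loci of the members the median share of reads on different copies was 10.5 to 14.0% between any pair of them, against 22.5 to 23.5% between 0 h libraries. The first and the third 48 h libraries were as alike (11.4%), while the second differed from them by 21.4 and 26.5%. When the 3 libraries of 12 h were summed into 1, and likewise the alike pair of 48 h, edgeR called no member in any comparison, with 3 members at 12 h against 0 h, 10 at 48 h against 0 h and 9 at 48 h against 12 h under an unadjusted p of 0.05. That fit takes the spread of 12 h, left with a single sample, to be that of the other times. It also has fewer libraries, so calls can be lost in it for that reason alone. Levels are given as scaled FPKM, the deposited FPKM divided by the library's TMM factor (trimmed mean of M values, edgeR), because library totals alone moved the median of all genes by 0.39 on the log2 scale at 12 h against 0 h and by -0.54 at 48 h against 12 h.

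By the compartment named in the description, 60 members were cytoplasmic enzymes for 12 amino acids, 65 were enzymes of plastid and mitochondrion for 16, 11 were mitochondrial enzymes for threonine and valine, and 57 for 11 amino acids named no compartment. Lysine had the most members (17) and glutamine the fewest (3). None of the glutamine members named an organelle, and plant organelles are known to make glutaminyl-tRNA by amidating glutamate on the tRNA. Averaged over the 9 libraries the members ranged between 0.484 and 39.0 scaled FPKM with a median of 4.11, beside a median of 3.50 over all tested genes. The most abundant was MS.gene77474, a plastid and mitochondrial threonine enzyme on chromosome 3.2, and the next was the cytoplasmic aspartate enzyme MS.gene92603 on chromosome 6.4. At 0 h the summed level per amino acid was highest for threonine, at 116 ± 18.2 scaled FPKM, and lowest for glutamine, at 18.9 ± 6.36 (SD, n = 3 each). Each amino acid's range over the 0 h libraries overlapped that of the next in this order.

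**Figure D1:**
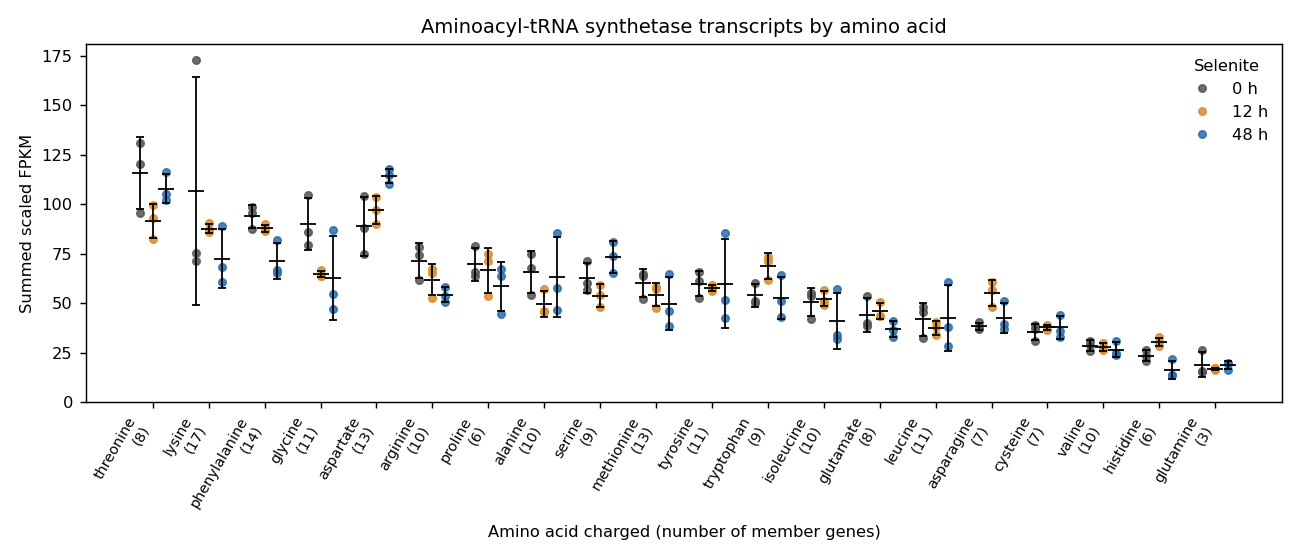
Summed scaled FPKM of the members for each amino acid, with the number of member genes in brackets; points are libraries, and black bars are the mean and SD of 3 libraries at 0, 12 and 48 h. Most amino acids overlap between times, the lysine total of 1 library at 0 h stands at 173, and histidine is lower at 48 h than at 12 h.

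The whole set changed little. All members together summed to 1268, 1108 and 1279 scaled FPKM at 0 h, to 1146, 1148 and 1138 at 12 h, and to 1031, 1294 and 978 at 48 h, and the ranges of the 3 times overlapped. The direction of the total at 12 h against 0 h depended on scaling: the log2 ratio of means was -0.09 in scaled FPKM and 0.31 in the deposited FPKM. In edgeR's quasi-likelihood test over 50878 genes, with Benjamini-Hochberg adjustment and calls at an adjusted p under 0.05, 0 members rose and 2 fell at 12 h against 0 h. That is 1.04% of the members, where 5.88% of all tested genes were called, 1.58% higher and 4.29% lower. At 48 h against 0 h, 0 rose and 1 fell, or 0.518% of the members beside 1.14% of all genes (0.647% higher and 0.497% lower). Between 48 h and 12 h, 4 rose and 3 fell, or 3.63% of the members beside 10.6% of all genes (6.96% higher and 3.61% lower).

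The median log2 change of the members was 0.00, -0.18 and -0.10 in these comparisons, beside -0.01, -0.05 and -0.05 over all tested genes. In bulk leaf RNA, fewer cells of a type and less RNA per cell cannot be told apart. The libraries of 48 h were not alike in this: set against the mean of 0 h, the median member stood at -0.44, 0.03 and -0.42 on the log2 scale in them. The median over all tested genes stood at -0.13, -0.13 and -0.12. Without the second 48 h library the median change of members was -0.36 at 48 h against 0 h and -0.37 at 48 h against 12 h. Over all tested genes it was then -0.11 in both. In TMM-scaled counts the ranges of the times did not overlap for 40 members at 12 h against 0 h (20.7% of members, 36.8% of all genes), for 26 at 48 h against 0 h (13.5%, beside 23% of all genes) and for 54 at 48 h against 12 h (28%, beside 44.5%).

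The number of calls rested on single libraries. The share of all genes called in each of these refits is not given here, so the counts are not particular to the members. Of members called at 48 h against 12 h there were 2 without the first 12 h library, 3 without either of the other 12 h libraries, 3, 16 and 4 without the first, second and the third 48 h library, and 12 without the third 0 h library. The count at 48 h against 0 h was 5 without the second 48 h library and 2 without the first 0 h library. It was 0 when the third 0 h library, any 12 h library, or the first or the third 48 h library was left out. At 12 h against 0 h it was 4 and 3 without the second and the third 0 h library, 3 without the second 48 h library, 1 without the first 0 h or the second 12 h library, and 0 without the first or the third of 12 h or of 48 h.

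To limit the exchange of reads between copies, a second fit used summed counts of all genes with one description on one chromosome number, members or not. Genes off the numbered chromosomes stood alone and copies with differing descriptions stayed apart, so exchange of reads can remain among these. Of the 71 summed enzymes, 1 rose and 1 fell at 12 h against 0 h (2.82%, beside 10.5% of 24581 summed groups, of which 3.54% were higher and 6.99% lower). At 48 h against 0 h, 0 rose and 1 fell (1.41%, beside 3.95% of all groups, 2.09% higher and 1.86% lower). Between 48 h and 12 h, 2 rose and 3 fell (7.04%, beside 17.4%, 10.2% higher and 7.16% lower). Of the summed enzymes called, only the organellar serine enzyme on chromosome 3 joined several genes (4). The called histidine, lysine, tryptophan and valine groups hold 1 gene each, so for them this fit repeats the counts of the fit by gene. The ranges of summed TMM-scaled counts did not overlap for 14 enzymes at 12 h against 0 h (19.7%, beside 38.8% of all groups), for 17 at 48 h against 0 h (23.9%, beside 24.9%) and for 22 at 48 h against 12 h (31%, beside 46.7%). Without the second 48 h library these numbers of calls were 3, 7 and 12. The share of all summed groups called without a library is not given here, for these counts or the following ones. At 12 h against 0 h the number was 1 without the second 0 h library and 0 without any 1 of the 12 h libraries. At 48 h against 0 h it was 3, 2 and 2 without the first, second and the third 0 h library and 0 without the first 48 h library. At 48 h against 12 h it was 1 without any 1 of the 12 h libraries or the first 48 h library, and 3 without the third 48 h library.

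**Figure D2:**
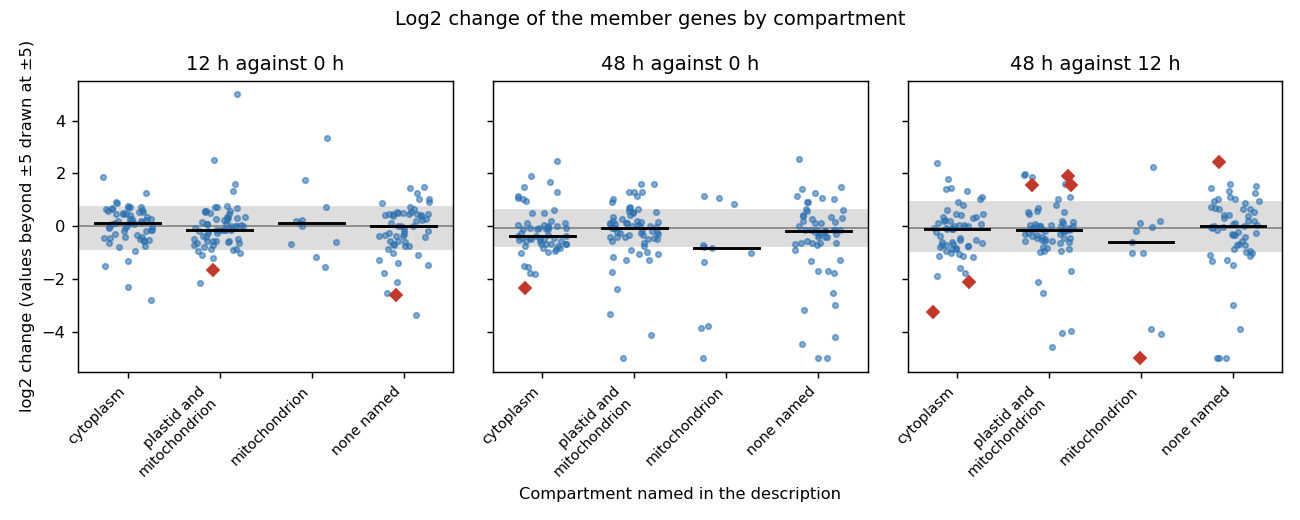
Log2 change of each member gene in the 3 comparisons, by the compartment its description names; red diamonds are called members, black lines the medians of a compartment, the grey band and line the quartiles and median of all tested genes. Most members lie within the band, and the 11 mitochondrial members have a median of -0.84 at 48 h against 0 h.

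Among cytoplasmic enzymes the calls were in histidine and isoleucine, and all of them were falls. The median log2 change of the 60 cytoplasmic members was 0.12 at 12 h against 0 h, -0.36 at 48 h against 0 h and -0.10 at 48 h against 12 h. MS.gene034805, a cytoplasmic histidine enzyme on an unplaced sequence numbered 8685 (positions 122304 to 132338 in the deposited table), had 2.49, 4.34 and 4.27 scaled FPKM at 0 h, 6.77, 6.60 and 7.37 at 12 h, and 0.620, 0.702 and 0.915 at 48 h. The 48 h libraries were lowest and the 12 h libraries highest, with no overlap between any times. This gene passed the filter through libraries of 0 h and 12 h alone, so its low level at 48 h was in part built into its choice. Its log2 change was -3.24 ± 0.35 (SE) at 48 h against 12 h (edgeR adjusted p = 0.00299) and -2.33 ± 0.34 at 48 h against 0 h (edgeR adjusted p = 0.0288), while 12 h against 0 h gave 0.92 ± 0.32 (edgeR adjusted p = 0.147). Leaving out any 1 library kept the call at 48 h against 12 h, with adjusted p between 0.00345 and 0.0164. The call at 48 h against 0 h was kept without the first 0 h library (edgeR adjusted p = 0.0252) or the second 48 h library (0.0243), and was lost without any 1 of the others (0.0536 to 0.112).

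The other cytoplasmic histidine member, MS.gene41088, lies on the unplaced sequence 10674. It had 10.4, 6.55 and 2.53 scaled FPKM at 0 h, 4.86, 4.28 and 4.93 at 12 h, and 3.09, 4.70 and 4.75 at 48 h, overlapping ranges. The 4 histidine members on chromosome 7, whose descriptions name no compartment, summed to 13.5, 12.2 and 14.1 at 0 h, 16.7, 21.7 and 18.0 at 12 h, and 10.0, 16.1 and 7.98 at 48 h. Their summed counts gave a log2 change of 0.48 ± 0.27 at 12 h against 0 h and of -0.71 ± 0.28 at 48 h against 12 h (edgeR adjusted p = 0.321 and 0.112). One of these copies, MS.gene007401 on chromosome 7.4, had 64, 0 and 294 counts at 0 h, 346, 737 and 641 at 12 h and 0 in every 48 h library. That is at least 114.5-fold lower at 48 h than at 12 h with 3 counts per library as the floor (edgeR adjusted p = 0.0576).

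MS.gene031797, a cytoplasmic isoleucine enzyme on chromosome 4.3 (positions 31655044 to 31659812) and the most abundant of its 5 members, had 8.15, 7.99 and 7.38 scaled FPKM at 0 h, 9.14, 14.7 and 11.3 at 12 h, and 3.28, 2.24 and 2.84 at 48 h. All 48 h libraries were below all others. The log2 change was -2.11 ± 0.32 at 48 h against 12 h (edgeR adjusted p = 0.0081) and -1.51 ± 0.31 at 48 h against 0 h (edgeR adjusted p = 0.067). The first of these stayed called without any 1 library. The other cytoplasmic isoleucine members did not pass, and the summed counts of the enzyme on chromosome 4 gave -0.84 ± 0.26 at 48 h against 12 h (edgeR adjusted p = 0.057).

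The cytoplasmic phenylalanine enzyme is built of an alpha and a beta subunit. The 3 alpha members on chromosome 4 summed to 15.6 ± 0.368 scaled FPKM at 0 h, 17.4 ± 1.45 at 12 h and 12.0 ± 1.73 at 48 h, and the 3 beta members on chromosome 8 to 6.34 ± 1.74, 7.03 ± 0.377 and 4.69 ± 1.72 (SD, n = 3 each). At 48 h against 12 h the summed counts gave log2 changes of -0.57 ± 0.19 for alpha and -0.48 ± 0.30 for beta (edgeR adjusted p = 0.0715 and 0.306). At 48 h against 0 h the cytoplasmic arginine, histidine, isoleucine and tryptophan classes had separate and lower ranges. Arginine members summed to 49.0, 56.5 and 51.0 scaled FPKM at 48 h, against 74.0, 57.1 and 70.8 at 0 h. Tryptophan members had 14.0, 15.6 and 19.8 at 48 h, against 22.4, 26.6 and 24.5 at 0 h. Among cytoplasmic classes, only aspartate was separate and higher at 48 h. Its 10 members summed to 65.1, 47.3 and 44.0 scaled FPKM at 0 h, 52.4, 64.5 and 56.9 at 12 h, and 74.0, 78.9 and 75.8 at 48 h. Its 2 summed groups, on chromosomes 6 and 1, were not called at 48 h against 0 h (log2 0.58 ± 0.23 and 0.38 ± 0.20, edgeR adjusted p = 0.193 and 0.343).

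**Figure D3:**
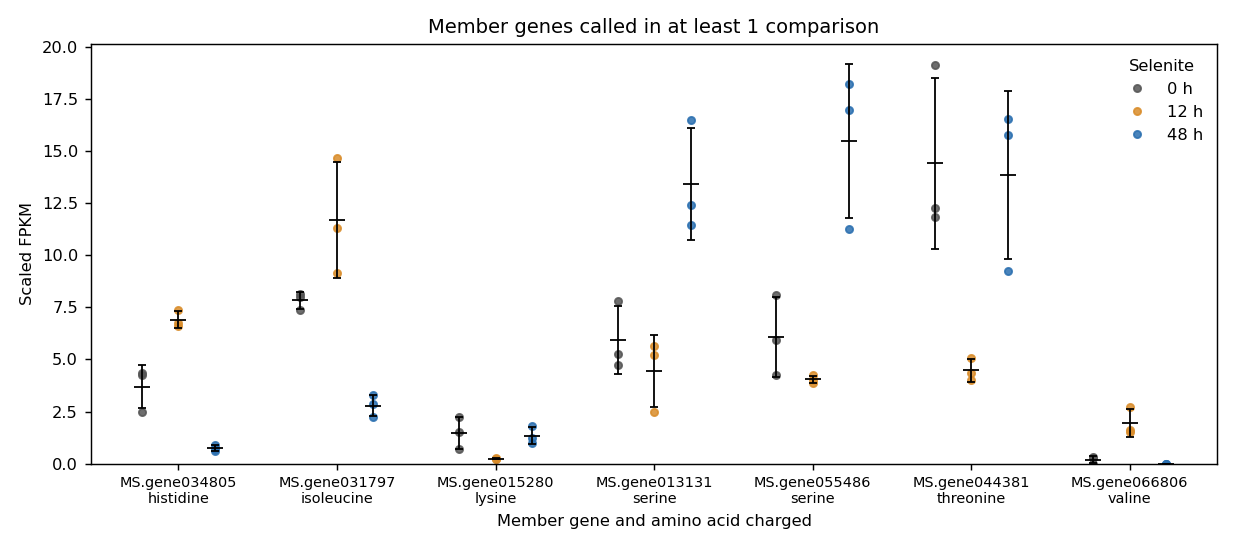
Scaled FPKM of the 7 member genes called in at least 1 comparison; points are libraries, and black bars are the mean and SD of 3 libraries at 0, 12 and 48 h. The histidine and isoleucine copies are lowest at 48 h, both serine copies are highest there, and the threonine and lysine copies are lowest at 12 h.

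Among the 65 enzymes of plastid and mitochondrion, serine rose at 48 h against 12 h. Their median log2 change was -0.13 at 12 h against 0 h, -0.06 at 48 h against 0 h and -0.14 at 48 h against 12 h. The 4 serine members of this class lie on chromosome 3 and summed to 31.6, 24.8 and 41.6 scaled FPKM at 0 h, 26.5, 27.1 and 26.4 at 12 h, and 63.2, 42.8 and 58.6 at 48 h. Every 48 h library was above every other, the second 48 h library by the least. Their summed counts rose at 48 h against 12 h by 1.08 ± 0.25 on the log2 scale (edgeR adjusted p = 0.0238), while 48 h against 0 h gave 0.83 ± 0.25 (edgeR adjusted p = 0.111). Without any 1 of the 12 h libraries, or without the first or the third of 48 h, the summed rise was no longer called (edgeR adjusted p = 0.0688 to 0.0837).

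The copy on chromosome 3.2, MS.gene055486 (positions 82704494 to 82723208), had 5.94, 4.26 and 8.09 scaled FPKM at 0 h, 4.24, 3.89 and 4.03 at 12 h, and 18.2, 11.3 and 17.0 at 48 h. The copy on chromosome 3.1, MS.gene013131 (positions 79477378 to 79495263), had 7.81, 5.26 and 4.73 at 0 h, 5.64, 5.20 and 2.47 at 12 h, and 12.4, 11.4 and 16.5 at 48 h. In both copies all 48 h libraries were above all others. The log2 change at 48 h against 12 h was 1.89 ± 0.33 for MS.gene055486 and 1.56 ± 0.39 for MS.gene013131 (edgeR adjusted p = 0.0125 and 0.0404), and at 48 h against 0 h neither was called (1.32 and 1.16, edgeR adjusted p = 0.101 and 0.186). MS.gene055486 lost its call without the first or the second 12 h library (edgeR adjusted p = 0.0523 and 0.0608). MS.gene013131 kept it only without the first or the third 0 h library or the second 48 h library (0.0422 to 0.045), with adjusted p of 0.0501 without the second 0 h library and 0.0834 to 0.113 without any 1 of the rest.

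The more abundant model on chromosome 3.3, MS.gene38588, had 12.4, 9.03 and 20.6 scaled FPKM at 0 h, 13.7, 14.8 and 15.8 at 12 h, and 30.2, 13.0 and 23.6 at 48 h, where the second 48 h library fell among the others. Its neighbour MS.gene38586, which starts 7015 bases further on the same strand, had 2.40, 7.10 and 1.46 at 48 h and 5.42, 6.25 and 8.18 at 0 h. The sum of the 5 putative serine members with no compartment named stood the other way at 48 h. It was 17.7, 22.4 and 15.2 scaled FPKM, against 25.2, 35.2 and 29.6 at 0 h. The lower sum came from the 4 members on chromosome 1, with a summed log2 change of -0.86 ± 0.27 at 48 h against 0 h (edgeR adjusted p = 0.115). The putative group on chromosome 3 holds 4 genes, of which 1 is a member, and was higher in every 48 h library than in any other. It had 3.23, 4.19 and 4.69 scaled FPKM at 48 h, against 2.46, 0.394 and 1.45 at 0 h. The difference between these classes in their change was not tested.

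**Figure D4:**
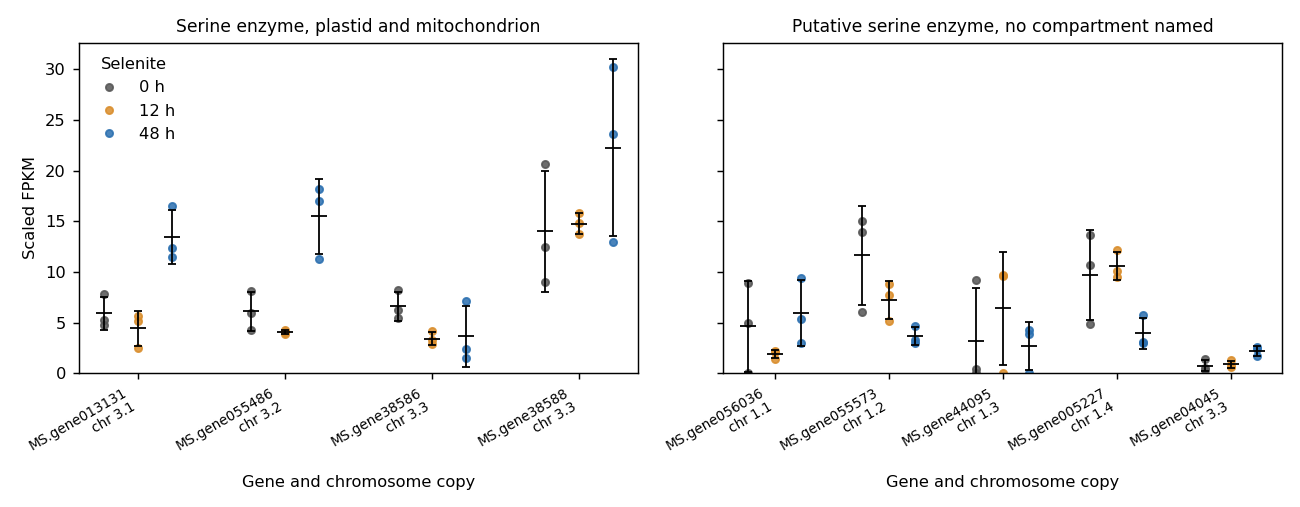
Scaled FPKM of the serine members by gene and chromosome copy, at left the enzymes of plastid and mitochondrion and at right the putative enzymes with no compartment named; points are libraries, and black bars are the mean and SD of 3 libraries at 0, 12 and 48 h. The copies on chromosomes 3.1 and 3.2 are highest at 48 h, while MS.gene055573 and MS.gene005227 on chromosome 1 average less at 48 h than at 0 h.

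Threonine differed between its copies. MS.gene044381 on chromosome 3.3 (positions 69959005 to 69961828) had 19.2, 11.9 and 12.3 scaled FPKM at 0 h, 5.09, 4.02 and 4.34 at 12 h, and 16.5, 9.24 and 15.8 at 48 h. The 12 h libraries were below all others, and 48 h overlapped 0 h. It fell at 12 h against 0 h by 1.66 ± 0.34 on the log2 scale and was higher at 48 h than at 12 h by 1.58 ± 0.34 (edgeR adjusted p = 0.0303 and 0.0253). The fall at 12 h stayed called without the second or the third 0 h library or the second 48 h library (edgeR adjusted p = 0.0162 to 0.0465) and was lost without any 1 of the others (0.052 to 0.129). The rise at 48 h was lost without any 1 of the 12 h libraries or without the first or the third of 48 h (edgeR adjusted p = 0.0756 to 0.103).

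MS.gene044380 ends 712 bases from MS.gene044381 on the same strand and carries the same description. It had 30.7, 28.1 and 39.2 scaled FPKM at 0 h, 12.7, 8.98 and 0 at 12 h, and 38.8, 18.5 and 31.9 at 48 h. The copy on chromosome 3.2, MS.gene77474, had 45.4, 17.0 and 38.1 at 0 h, 50.1, 48.8 and 48.1 at 12 h, and 26.9, 46.4 and 30.3 at 48 h, with the 12 h libraries at the top. Summed over the chromosome copies, the counts of this threonine enzyme gave log2 changes of -0.02 ± 0.23, 0.00 ± 0.23 and 0.03 ± 0.23 in the 3 comparisons, none called. In scaled FPKM, which weighs a short gene model more, the 4 members summed to 109, 71.0 and 100.4 at 0 h, 75.7, 67.1 and 59.7 at 12 h, and 99.8, 84.1 and 93.8 at 48 h. The 12 h range overlapped that of 0 h through the second 0 h library.

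Organellar tryptophan enzymes on chromosome 3 summed higher in every 12 h library than in any 0 h library, but were not called. The 5 tryptophan members of plastid and mitochondrion summed to 28.9, 23.4 and 35.8 scaled FPKM at 0 h. They had 47.3, 47.3 and 45.2 at 12 h, and 29.0, 48.3 and 31.2 at 48 h, and the second 48 h library was as high as those of 12 h. Part of this total at 12 h is MS.gene43248 on chromosome 8, chosen through its 12 h level as given below. The 4 copies on chromosome 3 had 39.7, 38.8 and 38.7 at 12 h, against 28.5, 23.2 and 35.8 at 0 h, and their summed counts gave a log2 change of 0.40 ± 0.25 (edgeR adjusted p = 0.361). MS.gene43248 on chromosome 8.4 (positions 19976260 to 19987768) had 0.395, 0.138 and 0 scaled FPKM at 0 h, 7.67, 8.48 and 6.48 at 12 h, and 0.156, 0.786 and 0.422 at 48 h. It passed the filter only through the 12 h libraries and so had to differ between times, which makes its calls a description. As a summed group of its own its log2 change was 5.30 ± 1.22 at 12 h against 0 h and -4.00 ± 1.14 at 48 h against 12 h (edgeR adjusted p = 0.0298 and 0.0452). In the fit by gene it missed the threshold at 12 h against 0 h (edgeR adjusted p = 0.0525). The first of these was no longer called without the second 0 h library or any 1 of the 12 h libraries (edgeR adjusted p = 0.0581 to 0.0916), and the other without these or the first or the third of 48 h (0.0569 to 0.13).

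Arginine, proline and phenylalanine enzymes of plastid and mitochondrion had lower levels in every 48 h library than in any 0 h library, but none of their members was called. The 2 arginine members summed to 1.71, 1.76 and 2.59 scaled FPKM at 48 h, against 4.28, 4.42 and 3.66 at 0 h. The 3 proline members had 25.8, 31.4 and 18.1 at 48 h, against 43.2, 44.7 and 36.6 at 0 h. The 4 phenylalanine members had 44.8, 50.6 and 39.5 at 48 h, against 64.4, 59.9 and 63.0 at 0 h. Over all 41 classes of amino acid and compartment, every 48 h library was above all 0 h libraries in 2 and below them in 11. A class can hold several summed enzymes, and of all single summed groups 24.9% had separate ranges in either direction. Shares by direction over all groups are not given here, so the counts of 2 and 11 describe these classes only.

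The 11 mitochondrial members, for threonine and valine, had median log2 changes of 0.13 at 12 h against 0 h, -0.84 at 48 h against 0 h and -0.61 at 48 h against 12 h. Set against the mean of 0 h, their median stood at -1.50, -0.06 and -1.45 in the 48 h libraries and at 0.13, 0.41 and -1.15 in the 0 h libraries. The second 48 h library was not low, and the third 0 h library was. In Arabidopsis the genes named after mitochondrial threonine and valine enzymes also supply the cytosol. The 4 threonine members summed to 22.1, 24.4 and 19.8 scaled FPKM at 0 h, 23.8, 26.0 and 22.6 at 12 h, and 16.3, 18.1 and 11.3 at 48 h, below all other libraries. Their log2 ratio of means was -0.54 at 48 h against 0 h. The summed group on chromosome 5 holds 4 genes, of which 3 are members. Its counts gave a log2 change of -1.11 ± 0.25 at 48 h against 0 h (edgeR adjusted p = 0.0518). With the gene below the filter this group had 48.4, 23.3 and 40.7 scaled FPKM at 0 h, so its change is not that of the members alone. The valine member MS.gene066806 on chromosome 4.2 (positions 80858430 to 80861353) had 0, 12 and 9 counts at 0 h, 91, 163 and 112 at 12 h, and none in any 48 h library. It passed the filter through the 12 h libraries alone and so had to differ between times. It was at least 24.6-fold lower at 48 h than at 12 h with 3 counts per library as the floor (edgeR adjusted p = 0.0382). The call was kept without the first 0 h library (edgeR adjusted p = 0.0111) and lost without any 1 of the others (0.0505 to 0.107). The 7 valine members together had 15.9, 20.0 and 16.5 scaled FPKM at 48 h and 19.5, 21.0 and 17.8 at 12 h, which overlap.

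Of the 57 members with no compartment named, 1 lysine copy was called. MS.gene015280 on chromosome 5.4 (positions 8823094 to 8828562) had 2.23, 0.694 and 1.50 scaled FPKM at 0 h, 0.238, 0.231 and 0.250 at 12 h, and 1.82, 0.993 and 1.23 at 48 h, with the 12 h libraries below all others. It passed the filter through libraries of 0 h and 48 h alone, so its low level at 12 h was in part built into its choice. Its calls against 12 h are therefore a description. The log2 change was -2.58 ± 0.57 at 12 h against 0 h and 2.43 ± 0.56 at 48 h against 12 h (edgeR adjusted p = 0.0381 and 0.033). It is the single gene of its summed group, where the changes were -2.62 ± 0.56 and 2.48 ± 0.56 (edgeR adjusted p = 0.023 and 0.0201), lost without the first 0 h library or any 1 of 12 h for the fall and without any 1 of 12 h or the first of 48 h for the rise (0.0601 to 0.0974). In the fit by gene the fall at 12 h was kept without the second 0 h or the second 48 h library and lost without any 1 of the others (edgeR adjusted p = 0.0624 to 0.146). The rise at 48 h was lost without any 1 of the 12 h libraries or without the first or the third of 48 h (0.0734 to 0.117). Another lysine member, MS.gene57619 on chromosome 8.4, had no counts at 48 h, against 35, 35 and 57 counts at 12 h, at least 8.37-fold lower (edgeR adjusted p = 0.0724).

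The lysine total at 0 h was set by 1 library. MS.gene42952, a cytoplasmic lysine enzyme on chromosome 6.3, had 8.61, 15.6 and 54.4 scaled FPKM at 0 h, 15.4, 15.1 and 11.0 at 12 h, and 17.1, 15.4 and 18.1 at 48 h. MS.gene42953, 19160 bases further on the same strand, had 10.6, 15.5 and 75.1 at 0 h, between 15.3 and 21.1 at 12 h, and between 17.7 and 19.5 at 48 h. Without this pair the 15 other lysine members summed to 51.9, 44.2 and 43.4 scaled FPKM at 0 h, 51.7, 50.8 and 63.9 at 12 h, and 31.4, 55.0 and 24.6 at 48 h, so the high value of the third 0 h library came from the pair. The putative glycine members on chromosome 3 also had 1 high library at 0 h. MS.gene009342, on chromosome 3.1, had 0.275, 15.6 and 2.38 scaled FPKM at 0 h, between 0.477 and 0.710 at 12 h, and between 0.240 and 1.22 at 48 h, and the copies on 3.2, 3.3 and 3.4 were highest in the same 0 h library, at 7.97, 3.66 and 3.09.

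The glycine members on chromosome 7, named glycyl-tRNA synthetase, were more abundant and differed between copies. MS.gene97873 on chromosome 7.2, the most abundant, had 23.0, 18.3 and 7.45 scaled FPKM at 0 h, 23.6, 20.9 and 19.8 at 12 h, and 9.89, 9.79 and 10.5 at 48 h. MS.gene54431 on chromosome 7.3 had 25.0, 4.22 and 26.2 at 0 h, 5.56, 4.94 and 5.41 at 12 h, and 13.9, 20.5 and 13.3 at 48 h. At 48 h the copy on 7.2 was below and the copy on 7.3 above every 12 h library. Their enzyme, summed over chromosome 7, gave log2 changes of -0.37 ± 0.30, -0.45 ± 0.30 and -0.08 ± 0.30 in the 3 comparisons, none called (edgeR adjusted p = 0.51, 0.473 and 0.882).

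None of the 7 cysteine and 13 methionine members was called in any comparison by edgeR, nor was any of their 6 summed groups. At an unadjusted p under 0.05 there was 1 of these 20 genes at 12 h against 0 h, beside 21.7% of all genes, 1 at 48 h against 0 h, beside 16.4%, and 0 at 48 h against 12 h, beside 27.3%. DESeq2, whose share of calls over all genes is not given here, called 0, 1 and 0 of them in this order. Their median log2 change was -0.14 at 12 h against 0 h, -0.32 at 48 h against 0 h and -0.11 at 48 h against 12 h. Cysteine members summed to 38.7, 36.7 and 30.8 scaled FPKM at 0 h, 36.2, 37.8 and 39.1 at 12 h, and 33.0, 44.1 and 36.1 at 48 h, overlapping at all times. Methionine members summed to 64.7, 52.1 and 63.8 at 0 h, 47.7, 58.2 and 56.9 at 12 h, and 38.5, 64.7 and 45.8 at 48 h. The first and the third 48 h libraries were below all 0 h libraries, and the second was level with the highest of them.

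Of the cysteine enzymes, the cytoplasmic pair on chromosome 1 was led by MS.gene065157 on 1.2, with 8.46, 9.45 and 7.72 scaled FPKM at 0 h, 6.05, 13.0 and 6.34 at 12 h, and 8.46, 9.20 and 6.67 at 48 h. The other, MS.gene029429 on 1.4, ranged between 2.64 and 11.0 over the 9 libraries, and their summed counts gave log2 changes of -0.10 ± 0.24, 0.01 ± 0.24 and 0.11 ± 0.24. The enzymes of plastid and mitochondrion on chromosome 3 were MS.gene80224 on 3.4, MS.gene072863 on 3.2 and MS.gene32666 on 3.1. MS.gene80224 had 10.2, 8.07 and 4.74 at 0 h, 7.31, 7.20 and 11.0 at 12 h, and 3.93, 11.3 and 2.53 at 48 h. MS.gene072863 lay between 4.25 and 9.26 in all libraries, and MS.gene32666 had no counts in the first and the third 0 h libraries and up to 6.81 elsewhere. Without the second 0 h library, which leaves 0 h with no counts, MS.gene32666 was called at 12 h and at 48 h against 0 h (edgeR adjusted p = 0.012 and 0.0468). Summed, this enzyme gave -0.29 ± 0.34 at 48 h against 0 h (edgeR adjusted p = 0.717). The pair on chromosome 6 without a compartment, MS.gene27411 and MS.gene065939, summed to 7.87, 5.88 and 7.03 at 48 h, against 2.78, 3.20 and 4.53 at 12 h, so 48 h was above 12 h in every library. Neither gene was called (log2 0.89 ± 0.43 and 0.97 ± 1.73, edgeR adjusted p = 0.221 and 0.781), and MS.gene065939 had no counts in the second and the third 0 h libraries. Without the first 0 h library it was called at 12 h and at 48 h against 0 h (edgeR adjusted p = 0.0124 and 0.0278).

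The 9 methionine members of plastid and mitochondrion lie in 2 stretches of chromosome 1. Those starting between positions 4613005 and 5077428 (MS.gene24474, MS.gene00501, MS.gene051694 and MS.gene66458, 1 on each copy) summed to 25.3, 21.5 and 24.4 scaled FPKM at 0 h, 19.1, 23.2 and 22.5 at 12 h, and 10.4, 24.8 and 11.4 at 48 h. Those starting between 78441411 and 87405346 (MS.gene75145, MS.gene029142, MS.gene49416, MS.gene037408 and MS.gene90864) summed to 25.5, 17.6 and 25.0 at 0 h, 18.4, 21.1 and 21.8 at 12 h, and 15.4, 22.1 and 18.4 at 48 h. In both stretches the second 48 h library was the highest of its time. MS.gene49416 on chromosome 1.2 was the most abundant, with 13.1, 9.46 and 11.6 at 0 h, 10.1, 10.8 and 9.96 at 12 h, and 8.33, 8.95 and 8.89 at 48 h. Its 48 h libraries were below all others, with a log2 change of -0.41 ± 0.23 against 0 h (edgeR adjusted p = 0.439). The summed counts of the 9 genes gave -0.44 ± 0.25 at 48 h against 0 h (edgeR adjusted p = 0.363).

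The 4 methionine members on chromosome 4 with no compartment named kept a level between 10.2 and 17.8 scaled FPKM over the 9 libraries, and their summed counts gave -0.19 ± 0.19, 0.16 ± 0.19 and 0.35 ± 0.19 in the 3 comparisons. Within them MS.gene031761 on chromosome 4.3 had 2.08, 2.80 and 3.23 at 0 h, 3.34, 4.04 and 4.41 at 12 h, and 4.75, 8.32 and 6.86 at 48 h, with no overlap between times. Its log2 change of 1.27 ± 0.33 at 48 h against 0 h did not pass in edgeR (adjusted p = 0.117), while DESeq2 called it (adjusted p = 0.0022). MS.gene052373 and MS.gene006544 on chromosome 4.4 gave -0.42 ± 0.27 and -0.21 ± 0.40, and MS.gene065875 on 4.2 had counts in 4 of the 9 libraries.

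**Figure D5:**
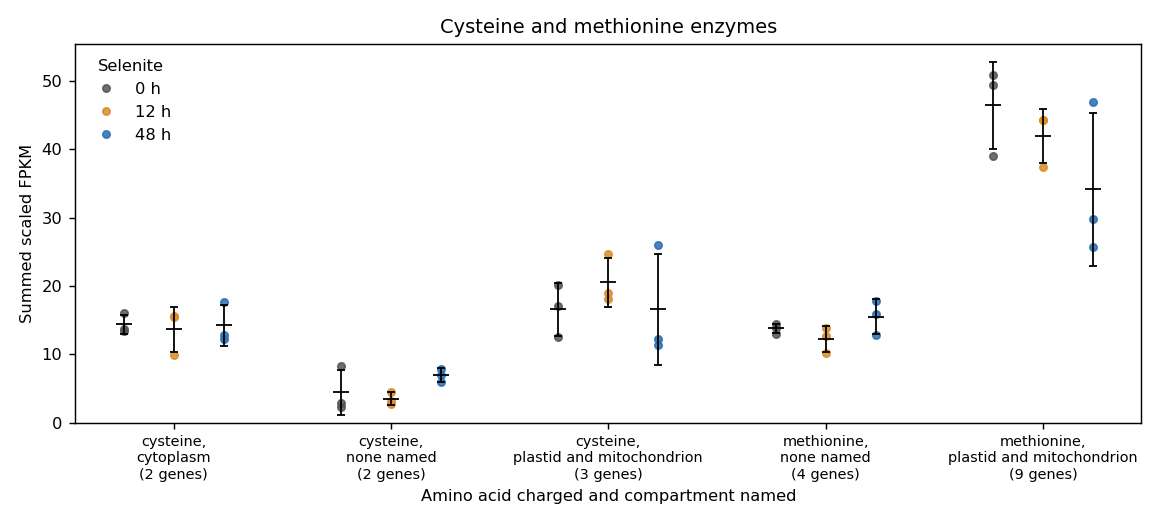
Summed scaled FPKM of the cysteine and methionine members by the compartment named; points are libraries, and black bars are the mean and SD of 3 libraries at 0, 12 and 48 h. Ranges at 48 h overlap those at 0 h in all 5 classes, and the highest 48 h library of the organellar methionine enzymes stands at 46.9 beside 25.7 and 29.8 in the others.

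The genes that act around the synthetases were counted from lists set on their descriptions. Of 112 genes of tRNA modification, 0 were called at 12 h or 48 h against 0 h by edgeR, with 10 and 11 at an unadjusted p under 0.05, beside 21.7 and 16.4% of all tested genes. At 48 h against 12 h 0 rose and 2 fell, where 6.96% of all genes were called higher and 3.61% lower. Among those that fell, MS.gene88983, a putative Pus10 that makes pseudouridine in tRNA, fell by 1.72 ± 0.34 on the log2 scale (edgeR adjusted p = 0.0199). Its summed copies fell by 0.76 ± 0.18 (edgeR adjusted p = 0.0231). The call by gene was lost without the first or the second 12 h library or without the first or the third 48 h library (edgeR adjusted p = 0.0588 to 0.0785). Of 38 genes of tRNA processing, 1 fell at 12 h against 0 h, 0 were called at 48 h against 0 h (5 at an unadjusted p under 0.05), and 1 rose and 3 fell at 48 h against 12 h, beside 5.88, 1.14 and 10.6% of all genes called in these comparisons. The one that fell at 12 h was MS.gene009975, named as the POP5 subunit of ribonuclease P, the enzyme that trims the leader of tRNA precursors. It was at 0 in all 12 h libraries, with 3.97, 1.62 and 1.84 deposited FPKM at 0 h (edgeR adjusted p = 0.0133). It passed the filter through libraries of 0 h and 48 h alone, so its low level at 12 h was in part built into its choice. The summed counts of its copies gave -0.60 ± 0.47 (edgeR adjusted p = 0.483).

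Of 49 genes that handle charged tRNAs, 1 fell at 12 h against 0 h, 0 were called at 48 h against 0 h (3 at an unadjusted p under 0.05), and 1 rose and 1 fell at 48 h against 12 h, beside the same shares of all genes (5.88, 1.14 and 10.6%). MS.gene62836, a mitochondrial peptidyl-tRNA hydrolase of the ICT1 type, fell by 2.31 ± 0.50 at 12 h against 0 h (edgeR adjusted p = 0.0367). Its summed copies gave -0.93 ± 0.27 (edgeR adjusted p = 0.0647). The call was kept only without the second 0 h, the third 12 h or the second 48 h library, with adjusted p of 0.0584 to 0.146 without any 1 of the others. MS.gene006017, subunit C of the amidotransferase that turns glutamyl-tRNA into glutaminyl-tRNA, fell by 1.35 ± 0.32 at 48 h against 12 h (edgeR adjusted p = 0.0366). Its summed copies gave -0.30 ± 0.34 (edgeR adjusted p = 0.6). That call was lost without any 1 of the 12 h libraries or without the first or the third of 48 h (edgeR adjusted p = 0.0827 to 0.112). Of 105 elongation factor genes, which bring charged tRNAs to the ribosome and move it along, 4 rose and 8 fell at 12 h against 0 h, 0 rose and 2 fell at 48 h against 0 h, and 6 rose and 14 fell at 48 h against 12 h. Of all tested genes 1.58% were called higher and 4.29% lower in the first of these comparisons, 0.647 and 0.497% in the second, and 6.96 and 3.61% in the third. MS.gene39764, an elongation factor 1-beta, had 9.33, 10.2 and 14.8 deposited FPKM at 0 h, was at 0 in all 12 h libraries and had 3.83, 7.45 and 4.51 at 48 h (edgeR adjusted p = 0.0026 at 12 h against 0 h). This gene passed the filter through libraries of 0 h and 48 h alone, so its low level at 12 h was in part built into its choice. Its summed copies gave -0.78 ± 0.26 (edgeR adjusted p = 0.098). The median log2 change of the elongation factors was -0.07, -0.49 and -0.53, beside 0.00, -0.18 and -0.10 for the synthetases. The elongation factor 2 gene MS.gene040570 fell by 5.55 ± 0.90 at 48 h against 0 h (edgeR adjusted p = 0.0381). This gene passed the filter through libraries of 0 h and 12 h alone, so its low level at 48 h was in part built into its choice. Its 15 summed genes gave -1.09 ± 0.42 (edgeR adjusted p = 0.187). The call was kept only without the third 12 h or the second 48 h library, with adjusted p of 0.0544 to 0.143 without any 1 of the others. The last list took descriptions naming GCN1, GCN2 or an initiation factor 2-alpha kinase, where GCN2 is the kinase that uncharged tRNA activates. Of its 6 genes none reached the filter, and the highest averaged 0.618 scaled FPKM.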

How the data were processed

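Per the labels' protocols, poly(A) RNA from alfalfa leaves was broken into fragments for paired-end libraries (insert 300 ± 50 bp). HISAT and StringTie appear in the submitters' processing notes with no version. Genome build, annotation, strand setting and the treatment of reads that fit more than 1 chromosome copy are given by none of the sources used here, so positions are those of the deposited table. The authors deposited whole-number read counts per gene and FPKM values for the same 9 libraries. FPKM was listed as 0.0001 where the count was 0 and was read as 0.

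Genes with FPKM of 1 or more in at least 3 of 9 libraries were tested on the deposited counts with edgeR 4.0.16 (R 4.3.3): TMM scaling, 1 mean per time, all libraries in 1 quasi-likelihood fit, Benjamini-Hochberg adjustment over all genes tested, calls at adjusted p under 0.05. The SE was taken as the absolute log2 change over the root of the quasi-likelihood F. The biological coefficient of variation was 0.843 over 50878 genes and 0.670 over 24581 summed groups. Counts were summed over genes sharing a description and a chromosome number, and genes off the numbered chromosomes stood alone. Where all libraries of a time had 0 counts, the fold is a limit computed with 3 counts in each such library, which covers counting error only. FPKM was divided by the TMM factor after the data were seen. limma 3.58.1 and DESeq2 1.42.0 served as alternatives. The main edgeR fits were also run on simulated counts with known changes, for 12 h and 48 h against 0 h. All rows were given 1 spread. By gene, 0 and 1.49% of 4-fold changes were recovered in these comparisons, and 5.97 and 13.4% of 16-fold changes. Over summed groups the shares were 5.97 and 10.4% of 4-fold and 70.1 and 79.1% of 16-fold changes. In that setting most 4-fold changes were missed. Neither 48 h against 12 h nor the alternative fits were simulated.

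The members and the lists were chosen with earlier results of these data known. Named are every called member and summed enzyme, the most abundant member of each class described, every cysteine and methionine member, and in each list of other genes the called gene of smallest adjusted p; the remaining members named for 1 high library, for neighbouring gene models or for differing copies were chosen after their values were seen. The list of tRNA processing first took in 2 PARN-like genes through its pattern and is given without them. It counted with them 1 call at 12 h against 0 h, 1 at 48 h against 0 h and 5 at 48 h against 12 h.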

Additional observations from a re-analysis of the deposited data

Results flagged for a closer look

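Since 12 h and 48 h share the same 0 h libraries, a difference between their changes was tested as 48 h against 12 h, and each member called there by edgeR is given here as the log2 change at 48 h minus that at 12 h. Lower at 48 h were the cytoplasmic histidine enzyme MS.gene034805 (-3.24 by gene and -3.19 as its own summed group) and the cytoplasmic isoleucine enzyme MS.gene031797 (-2.11). Also lower were the mitochondrial valine enzyme MS.gene066806 (-9.52 by gene and -9.50 as its own summed group) and the tryptophan enzyme MS.gene43248 on chromosome 8 as its own summed group (-4.00). Both of these genes passed the FPKM filter through the 12 h libraries alone, so a difference from 12 h was built into their choice. The values for valine rest on 0 counts in every 48 h library and depend on the prior count of the fit. Higher at 48 h were the putative lysine enzyme MS.gene015280 (2.43 by gene and 2.48 as its own summed group) and the threonine copy MS.gene044381 (1.58). The lysine gene passed the FPKM filter through libraries of 0 h and 48 h alone, so its low level at 12 h was in part built into its choice. The histidine gene passed it through libraries of 0 h and 12 h alone, and the same holds for its low level at 48 h. Serine enzymes of plastid and mitochondrion were higher at 48 h in MS.gene055486 (1.89), in MS.gene013131 (1.56) and in the sum of their copies on chromosome 3 (1.08).

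The 12 h libraries were alike in their use of chromosome copies, and so were the first and the third 48 h libraries. A fit with those libraries summed into 1 each has fewer libraries, and a single sample at 12 h. Calls can be lost in it for that reason alone, so it cannot tie this likeness to the calls. Whether this likeness has a part in the calls was not tested.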

How the results depend on the processing

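No called member changed direction under any alternative run. For the alternative runs, the share of all genes or summed groups called is not given here. The counts below therefore show how the calls depend on the setting and are no result about the members. Among genes, members called at 12 h against 0 h, at 48 h against 0 h and at 48 h against 12 h numbered 2, 1 and 7, against 11, 14 and 23 with DESeq2, 6, 2 and 25 with limma on log2(FPKM + 1), and 5, 2 and 22 with limma on log2(FPKM + 0.1). With library totals alone they were 1 at 12 h against 0 h and 15 at 48 h against 12 h. With no filter on low values they were 0, 0 and 3, with only the 2 times compared 1, 0 and 17, and with like libraries summed 0, 0 and 0. A filter at FPKM 5 gave 2 at 48 h against 0 h. Leaving out 1 library gave 0 to 4, 0 to 5 and 2 to 16.

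Summed enzymes called numbered 2, 1 and 5, against 4, 10 and 14 with DESeq2, 7, 3 and 21 with limma on log2(FPKM + 1), 7, 4 and 19 with limma on log2(FPKM + 0.1), 6, 2 and 23 with library totals alone and 0, 0 and 0 with like libraries summed. The filter at FPKM 5 gave 1 at 12 h against 0 h and 2 at 48 h against 0 h, the 2 times compared alone gave 0 at 48 h against 0 h and 8 at 48 h against 12 h, and summing by description alone gave 0 at 12 h against 0 h and 2 at 48 h against 12 h. Leaving out 1 library gave 0 to 3, 0 to 7 and 1 to 12.

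The median change of members was 0.00 at 12 h against 0 h and -0.10 at 48 h against 12 h, and 0.39 and -0.59 with library totals alone, 0.31 and -0.48 with limma on log2(FPKM + 1), and 0.45 and -0.67 with limma on log2(FPKM + 0.1). Leaving out 1 library gave -0.06 to 0.04, -0.36 to -0.13 (48 h against 0 h) and -0.37 to -0.035. The log2 ratio of enzyme totals was 0.31, -0.24 and -0.55 in deposited FPKM (0.26 to 0.39, -0.34 to -0.16 and -0.65 to -0.50 without 1 library), and -0.091 and -0.055 for 12 h against 0 h and 48 h against 12 h after division by the TMM factor, a scaling chosen after seeing the data.

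The replicate numbers did not pair the libraries: the correlation of deviations was -0.0452 to 0.0262 for the same number and -0.0431 to 0.0494 for different numbers. With the replicate number as a block, members called were 0, 0 and 3 by gene, and of summed enzymes 0 at 12 h against 0 h and 3 at 48 h against 12 h. The causes of these shifts were not tested beyond the fewer libraries or genes some settings use.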
